A study of Mus musculus with 4 samples.

Results

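Gjb2, Gjb5, Gja1 and Gjc1 are 4 of the 18 mouse connexin genes considered here among the 25731 genes of an RNA-seq table of mouse embryonic fibroblasts (MEF). Gjb2 was chosen by its measured values in the knockout, since a transcript record of this gene was the one with the largest increase on TGFB1 in Hmga2-/- MEF, and the other 3 genes were taken with it as members of the same family. The TGFB1 comparison in Hmga2-/- MEF is therefore a description for Gjb2. Only the libraries of Hmga2+/+ MEF were not used in finding that increase, although earlier results of these data were known when the genes were chosen. The table held 63759 transcript records, of which 18 belonged to these 4 genes: 2 to Gjb2, 2 to Gjb5, 8 to Gja1 and 6 to Gjc1.

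The 4 conditions, with 1 library for each, were Hmga2+/+ MEF and Hmga2-/- MEF, each starved overnight in 1% FCS and then kept for 24 h with water (Ctrl) or with recombinant human TGFB1 at 10 ng/ml. All cells came from C57BL/6 embryos at embryonic day 15.5 and were immortalized with SV40, so the libraries of both genotypes share this treatment, and the number of lines behind each genotype is not given in the sources used here. The depth was 56140000 to 57300000 mapped reads per library. Levels are RPKM, reads per kilobase of transcript scaled to the mapped reads of the library, so levels of genes of different length can be compared. With 1 library per condition no difference was tested, and all intervals below are exact 95% intervals for counting error only, which leave out the spread between cultures. In such bulk samples fewer cells of a type and less RNA per cell cannot be told apart.

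Connexins are membrane proteins that assemble into hemichannels, which dock between neighbouring cells to form gap junctions through which ions and small molecules pass. Gja1 is the connexin that fibroblasts, heart muscle and many other tissues are known for. Gjc1 is known from the conduction system of the heart and from vascular smooth muscle, Gjb2 from the supporting cells of the inner ear and from the epidermis, and Gjb5 from stratified epithelia. TGFB1 is a cytokine that fibroblasts answer to through SMAD proteins, and Hmga2 encodes a chromatin protein that binds AT-rich DNA.

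The libraries carried the genotype and the treatment of their labels. Hmga2 had 14.8 RPKM in Hmga2+/+ Ctrl, 40.7 RPKM in Hmga2+/+ TGFB1 and 0 reads in both Hmga2-/- libraries. Ccn2, a classical TGFB1 target, had 13.2 and 172.7 RPKM in Ctrl and TGFB1 of Hmga2+/+ MEF, and 24.9 and 358.9 RPKM in Hmga2-/- MEF. Smad7, an inhibitor of the pathway that TGFB1 itself induces, had 6.40 and 10.6 RPKM in Hmga2+/+ and 6.67 and 14.6 RPKM in Hmga2-/- MEF. All 8 fibroblast markers of the list were above 1 RPKM in every library, and their summed level was 1874 to 2263 RPKM.

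The sequences around the annotated starts are shown because the genes lie at opposite ends of the range described here: Gjb2 with the largest change, Gja1 with the highest level and Gjb5 with hardly any reads. Of the 4 genes, 3 matched the promoter table (RefSeq, GRCm38.p6), and Gjc1 did not. Each stretch holds 250 bases before and 50 bases after the start, 5′ to 3′ on the strand of the gene. Capitals mark a match on either strand to one of the motifs searched. The Sp1 box was searched as GGGCGG on both strands. The AP-1 motif was spelled TGAGTCA in this search. The core promoter box bound by TBP was spelled TATAAA, and no matches overlapped.
Gjb2 (chr14:57104653-57104952, minus strand): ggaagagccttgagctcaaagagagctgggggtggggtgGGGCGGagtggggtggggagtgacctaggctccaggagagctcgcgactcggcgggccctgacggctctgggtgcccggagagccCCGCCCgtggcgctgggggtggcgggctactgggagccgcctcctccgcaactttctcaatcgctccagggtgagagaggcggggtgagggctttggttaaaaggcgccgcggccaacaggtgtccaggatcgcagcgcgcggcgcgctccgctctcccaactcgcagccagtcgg
Gja1 (chr10:56377050-56377349, plus strand): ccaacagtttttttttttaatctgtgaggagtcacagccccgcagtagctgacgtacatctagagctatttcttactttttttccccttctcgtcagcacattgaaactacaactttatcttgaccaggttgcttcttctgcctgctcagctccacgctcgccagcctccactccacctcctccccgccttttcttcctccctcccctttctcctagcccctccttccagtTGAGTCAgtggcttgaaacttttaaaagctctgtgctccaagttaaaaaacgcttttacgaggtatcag
Gjb5 (chr4:127358115-127358414, minus strand): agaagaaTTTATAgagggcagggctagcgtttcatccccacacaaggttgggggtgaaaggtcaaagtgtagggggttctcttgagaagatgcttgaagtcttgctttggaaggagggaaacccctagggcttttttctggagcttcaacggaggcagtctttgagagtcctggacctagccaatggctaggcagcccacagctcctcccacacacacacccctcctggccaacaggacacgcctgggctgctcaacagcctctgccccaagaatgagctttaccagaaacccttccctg
The Gjb2 promoter was rich in G and C (70%, with 27 CpG dinucleotides) and held GGGCGG on the strand of the gene, its first base 211 bases before the start, and on the opposite strand, 126 bases before the start. The Gja1 promoter had 47.7% G and C, 8 CpG and a TGAGTCA that began 19 bases before the start. The Gjb5 promoter had 54.3% G and C, 3 CpG and a TATAAA on the opposite strand, 243 bases before the start. Over 32851 promoters of the same length the medians were 52.7% G and C and 7 CpG, and 35.7% held the Sp1 box, 5.2% the AP-1 motif and 13.6% the core promoter box. CAGAC, a SMAD motif found in 49.6% of all promoters, was in none of the 3 windows. These matches are letters in a window and no measure of binding.

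Gjb2 was low in Ctrl and the second most abundant connexin with TGFB1, in both genotypes. Its longest record (chr14:57098602-57104702, minus strand, mm10) spans both exons of the gene and is 2401 bases long. It had 0.586 RPKM in Hmga2+/+ Ctrl, 51.7 RPKM in Hmga2+/+ TGFB1, 1.09 RPKM in Hmga2-/- Ctrl and 94.3 RPKM in Hmga2-/- TGFB1, from 79, 7111, 148 and 12895 reads. The counting intervals of the 4 libraries did not overlap: they ran from 0.464 to 0.730, from 50.5 to 52.9, from 0.921 to 1.28 and from 92.7 to 96.0 RPKM. In Hmga2+/+ MEF, whose libraries were not used to find the largest increase, Gjb2 was 88.2-fold higher with TGFB1 (70.7 to 111.5). In Hmga2-/- MEF it was 86.6-fold higher (73.7 to 102.6).

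Gjb2 was also higher in Hmga2-/- than in Hmga2+/+ MEF under each treatment. On the longest record the ratio was 1.86 (1.40 to 2.47) in Ctrl and 1.82 (1.77 to 1.88) with TGFB1. Each of these ratios shares a library with the comparison that chose the gene. On the log2 scale Hmga2+/+ MEF responded to TGFB1 by 6.46 and Hmga2-/- MEF by 6.44. The difference of these responses was -0.03, with an interval from -0.42 to 0.37. A difference within these bounds was not detectable with 79 reads in Hmga2+/+ Ctrl.

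The increase that selected Gjb2 was read from a shorter record. When the 28049 transcript records that reached 1 RPKM in Hmga2-/- Ctrl and TGFB1 alike were ordered by their fold on TGFB1, the 2 records of Gjb2 came first and second, with 91.8 and 86.6, and the record just behind was that of Hbegf with 42.8. The shorter record (chr14:57100069-57100749, minus strand, 680 bases) covers the coding sequence of Gjb2, which lies within exon 2, and it is nested in the longest record and shares its reads. It had 0.943, 114.1, 2.29 and 209.9 RPKM in the order of libraries used above, from 36, 4444, 88 and 8128 reads. TGFB1 was 121-fold above Ctrl on this record in Hmga2+/+ MEF (87.2 to 172.9) and 91.8-fold in Hmga2-/- MEF (74.4 to 114.6). The difference of the log2 responses was -0.40 (-0.96 to 0.16), and its interval includes 0 as that of the longest record did. The ratio of Hmga2-/- to Hmga2+/+ MEF on the shorter record was 2.42 (1.63 to 3.68) in Ctrl and 1.84 (1.77 to 1.91) with TGFB1.

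The 1721 bases of the longest Gjb2 record outside the coding sequence had lower levels, at 0.445, 27.0, 0.616 and 48.6 RPKM. Here the TGFB1 ratio was 60.8 (45.0 to 84.2) in Hmga2+/+ and 79.0 (61.3 to 103.7) in Hmga2-/- MEF. The coding sequence makes up 28.3% of the record and took 62.5% of its reads in Hmga2+/+ TGFB1 (61.4 to 63.6, Wilson interval), 59.5% in Hmga2-/- Ctrl (51.4 to 67.0) and 63.0% in Hmga2-/- TGFB1 (62.2 to 63.9). In Hmga2+/+ Ctrl the share was 45.6% (35.0 to 56.5), below the other 3 libraries and with an interval apart from those of both TGFB1 libraries. The fold of Gjb2 in Hmga2+/+ MEF therefore depended on the stretch that was counted, from 60.8 to 121, while that in Hmga2-/- MEF lay between 79.0 and 91.8. The genotype ratio in Ctrl also depended on the stretch. Outside the coding sequence Hmga2+/+ and Hmga2-/- Ctrl had 0.445 and 0.616 RPKM, and on it 0.943 and 2.29 RPKM. The shares of Gja1 and Gjc1 had no such spread: the coding sequence of Gja1 took 57.3% to 58.4% of the reads in the 4 libraries and that of Gjc1 80.0% to 81.8%. In Hmga2+/+ MEF the TGFB1 ratio of Gjc1 was 1.09 (1.02 to 1.16) on the coding record. On the rest of its longest record it was 0.967, with an interval from 0.849 to 1.10 that includes no change.

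**Figure D1:**
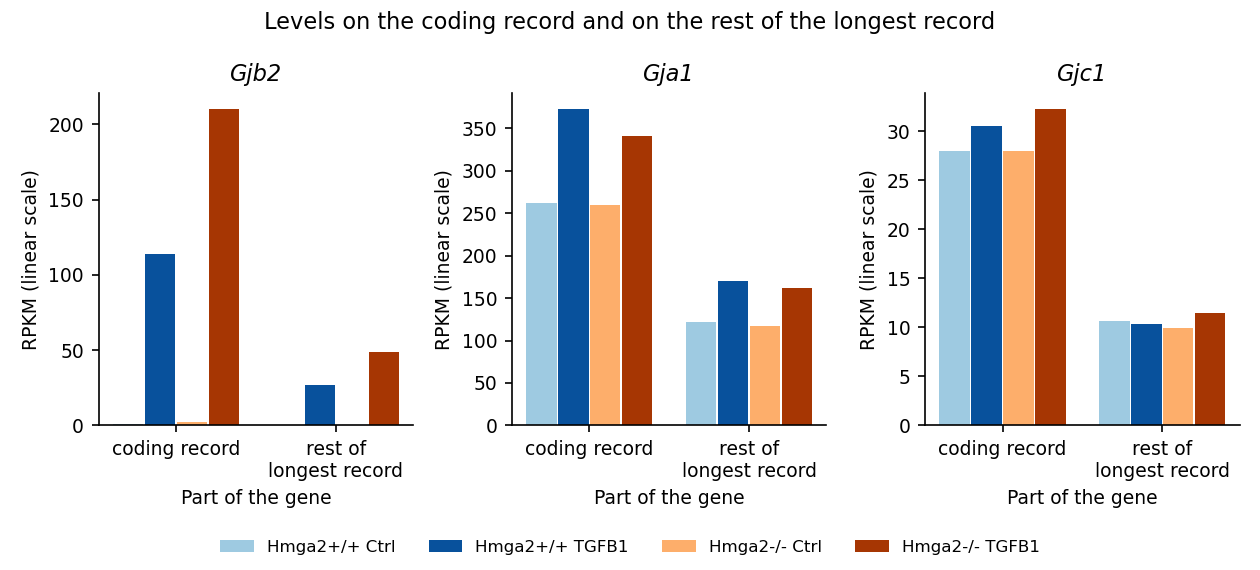
RPKM (linear axes from 0) of the coding record and of the rest of the longest record for Gjb2, Gja1 and Gjc1, with 1 bar for each library. For all 3 genes the coding record had the higher level, and the Ctrl bars of Gjb2, at most 2.29 RPKM, are hardly visible beside 114.1 and 209.9 RPKM with TGFB1.

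Gja1 was the most abundant connexin in every library. Its longest record (chr10:56377273-56390419, plus strand, 2953 bases) had 175.9 RPKM in Hmga2+/+ Ctrl, 248.8 RPKM in Hmga2+/+ TGFB1, 172.7 RPKM in Hmga2-/- Ctrl and 231.4 RPKM in Hmga2-/- TGFB1, from 28867 to 42101 reads. Both TGFB1 libraries were above both Ctrl libraries. The ratio of TGFB1 to Ctrl was 1.41 (1.39 to 1.44) in Hmga2+/+ and 1.34 (1.32 to 1.36) in Hmga2-/- MEF, beyond counting error and under the 1.5-fold threshold used here. Over all 8 records of Gja1 these ratios ran from 1.41 to 1.42 and from 1.31 to 1.35, although the records, which share most reads, had levels from 159.6 to 261.8 RPKM in Hmga2+/+ Ctrl. Between genotypes Gja1 differed little: Hmga2-/- MEF had 0.982 (0.966 to 0.998) of the Hmga2+/+ level in Ctrl and 0.930 (0.917 to 0.943) with TGFB1. The small difference in Ctrl, -0.03 on the log2 scale, turned to 0.0045 when the libraries were rescaled by the median ratio over 27570 transcripts. The log2 response to TGFB1 was smaller in Hmga2-/- MEF by 0.08 (difference -0.08, from -0.11 to -0.05).

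Gjc1 was present at a steady, lower level. Its longest record (chr11:102799478-102819686, minus strand, 1972 bases) had 21.1, 22.5, 20.8 and 24.0 RPKM, from 2335, 2542, 2323 and 2694 reads. The highest of these 4 values was that of Hmga2-/- TGFB1, and the intervals of the 2 Hmga2+/+ libraries, 20.2 to 22.0 and 21.6 to 23.4 RPKM, overlapped. The ratio of TGFB1 to Ctrl was 1.07 (1.01 to 1.13) in Hmga2+/+ and 1.15 (1.09 to 1.22) in Hmga2-/- MEF. Hmga2-/- MEF had 0.987 (0.931 to 1.05) of the Hmga2+/+ level in Ctrl and 1.07 (1.01 to 1.13) with TGFB1, so that no ratio of Gjc1 came near 1.5. Rescaling turned its log2 difference in Ctrl from -0.02 to 0.012. The 6 records of Gjc1, several of which differ in their start, gave TGFB1 ratios from 1.06 to 1.09 in Hmga2+/+ and from 1.14 to 1.15 in Hmga2-/- MEF.

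Gjb5 was barely detected. Its longest record (chr4:127354809-127358164, minus strand, 1701 bases) had 0.063, 0.072, 0.083 and 0.062 RPKM, which is 6, 7, 8 and 6 reads. With fewer than 10 reads in every library it did not pass the filter on low values. The ratio of TGFB1 to Ctrl was 1.14 in Hmga2+/+ MEF, with an interval from 0.329 to 4.12, and 0.747 in Hmga2-/- MEF, with an interval from 0.213 to 2.45. A change of the size seen for Gjb2 lies outside these intervals, and a change of 2-fold in either direction lies within them.

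**Figure D2:**
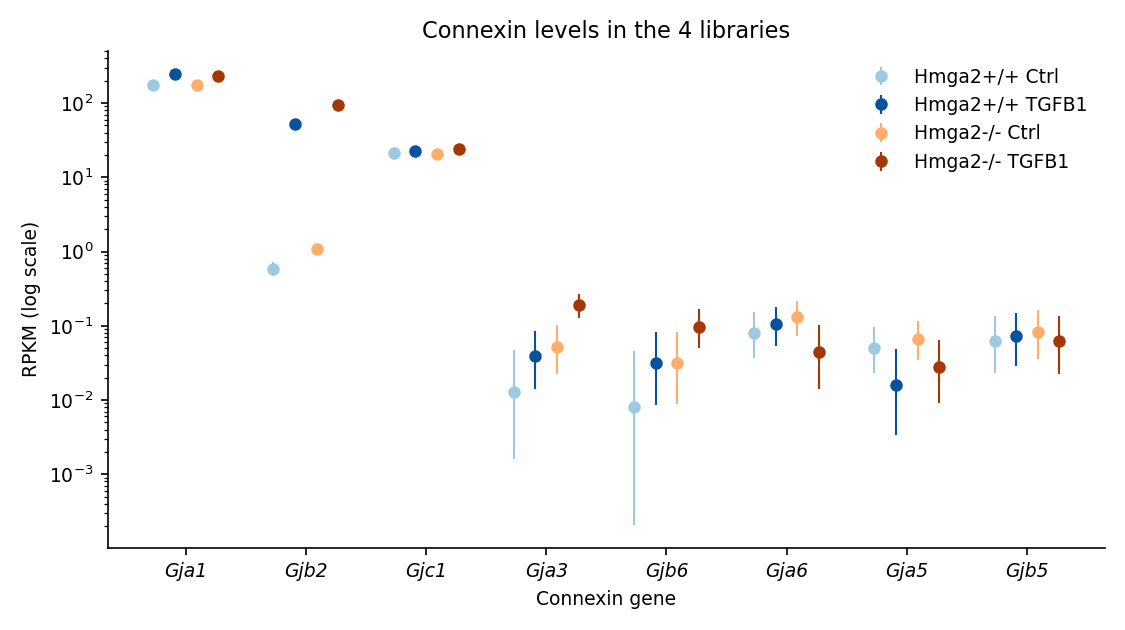
RPKM (log axis) of the 7 connexins with at least 10 reads in at least 1 library and of Gjb5, with 1 point for each library and exact counting intervals as bars. Gja1 and Gjc1 keep their level within 1.5-fold between Ctrl and TGFB1, Gjb2 is higher with TGFB1 in both genotypes, and the 4 points of Gjb5 lie within each other's intervals.

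Of the 4 genes, 3 passed the filter of at least 10 reads in at least 1 of the 2 libraries compared. Only Gjb2 was higher by 1.5-fold or more in Hmga2+/+ MEF on TGFB1, where 12.9% of all tested genes were higher and 23.1% lower. The same count, 1 higher and 0 lower, held in Hmga2-/- MEF, where 14.5% of genes were higher and 21.5% lower; there the rule used the comparison, and nothing is read from it. For Hmga2-/- against Hmga2+/+ MEF it was again Gjb2 alone that was higher, with 5.46% of genes higher and 5.74% lower in Ctrl, and 6.67% higher and 5.16% lower with TGFB1. In Ctrl this call was lost with a pseudocount of 1 RPKM, at a log2 difference of 0.40. At a threshold of 2-fold neither genotype ratio of the longest Gjb2 record passed. On the coding record the ratio in Ctrl was 2.42 (1.63 to 3.68), which is above 2-fold. With TGFB1 the median log2 change of the 3 genes, which is the value of Gja1, was 0.50 in the Hmga2+/+ cells, beside -0.09 over all genes tested. In the Hmga2-/- cells it was 0.42, again the value of Gja1, beside -0.04. Between genotypes the median was -0.02 in Ctrl and 0.09 with TGFB1, beside -0.02 and 0.04. Every comparison here except TGFB1 in Hmga2+/+ MEF uses a library by which Gjb2 was chosen, so nothing is read from the others.

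The order of the 4 genes by level differed between treatments. In both Ctrl libraries it was Gja1, Gjc1, Gjb2 and Gjb5, and in both TGFB1 libraries Gjb2 stood above Gjc1. No neighbours in this order had overlapping counting intervals. Of the summed RPKM of the 18 connexins, Gja1 held 88.9% in Hmga2+/+ Ctrl and 76.95% in Hmga2+/+ TGFB1, and 88.5% and 66.1% in Hmga2-/- Ctrl and TGFB1. The share of Gjb2 was 0.296% and 15.99% in Hmga2+/+, and 0.558% and 26.9% in Hmga2-/- MEF. On the coding records alone, which 14 connexins had, Gjb2 reached 22.0% in Hmga2+/+ TGFB1 and 35.96% in Hmga2-/- TGFB1. Gjc1 went from 10.7% in both Ctrl libraries to 6.96% and 6.85%, a lower share of a larger sum at a nearly equal level.

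**Figure D3:**
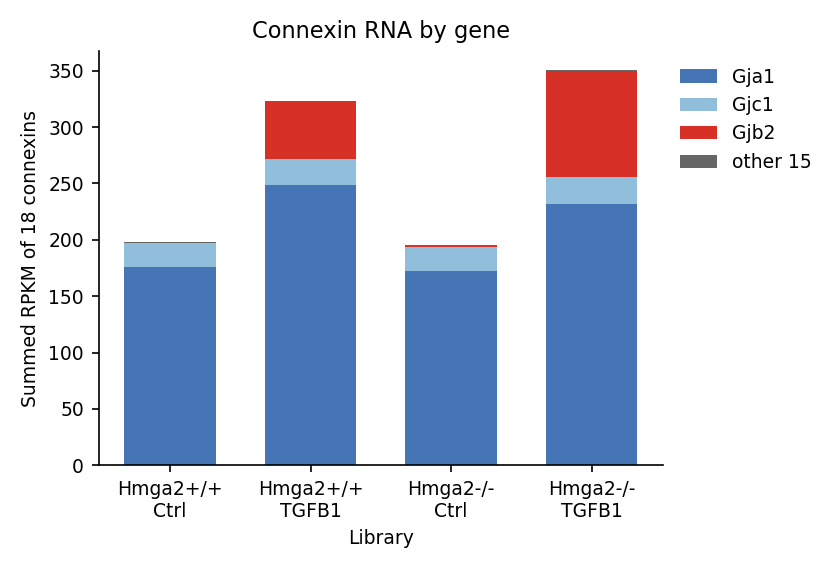
Summed RPKM of the 18 connexin genes (linear axis from 0), 1 bar for each library, divided by gene. The sum was 197.9 and 323.3 RPKM in Hmga2+/+ Ctrl and TGFB1 and 195.0 and 350.2 RPKM in Hmga2-/- Ctrl and TGFB1, and Gja1 and Gjb2 account for most of the difference between treatments.

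Beyond these genes, few connexins were detected. Of the 18 considered here, 11 had fewer than 10 reads in every library, Gjb5 among them, and 3 of the 11 had none. Those with at least 10 reads in every library were Gja1, Gjc1 and Gjb2. Gja3, Gja5, Gja6 and Gjb6 reached 10 reads in at least 1 library, with at most 29 reads.

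In Hmga2+/+ MEF 1 of the 4 connexins that passed the filter, Gjb2, was higher by 1.5-fold on TGFB1 and 0 lower. There 12.9% of all tested genes were higher and 23.1% lower. In Hmga2-/- MEF, where 14.5% of genes were higher and 21.5% lower, 3 of 7 were higher (Gjb2, Gja3 and Gjb6) and 2 lower (Gja5 and Gja6). The intervals of Gjb6, 0.904 to 12.7, and of Gja5, 0.114 to 1.26, include no change. Those of Gja3, 1.61 to 9.12, and of Gja6, 0.094 to 0.959, do not. The coding record of Gjb6 had 4 reads in Ctrl and 1 with TGFB1, and that of Gja3 had 8 and 14. That of Gja6 had 10 and 3 reads, and its interval, 0.053 to 1.16, includes no change. With a pseudocount of 1 RPKM or a filter of 1 RPKM the counts were 1 higher and 0 lower. Between genotypes 2 of 5 were higher in Hmga2-/- MEF in Ctrl (Gja6 and Gjb2) and 0 lower, beside 5.46% and 5.74% of genes. With TGFB1 3 of 6 were higher (Gja3, Gjb2 and Gjb6) and 1, Gja6, lower, beside 6.67% and 5.16%. The intervals of these genotype ratios include no change for Gja6, at 0.678 to 4.28 in Ctrl and 0.116 to 1.28 with TGFB1. That of Gjb6, 0.915 to 12.8, also includes it, and that of Gja3, 1.98 to 14.3, does not. The median log2 change of the connexins that passed was 0.44 and 0.42 on TGFB1, beside -0.09 and -0.04 over all genes tested. Between genotypes it was 0.42 and 0.48, beside -0.02 and 0.04. Since a connexin with few reads could pass through the library where it was higher, these counts are no measure of the family.

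**Figure D4:**
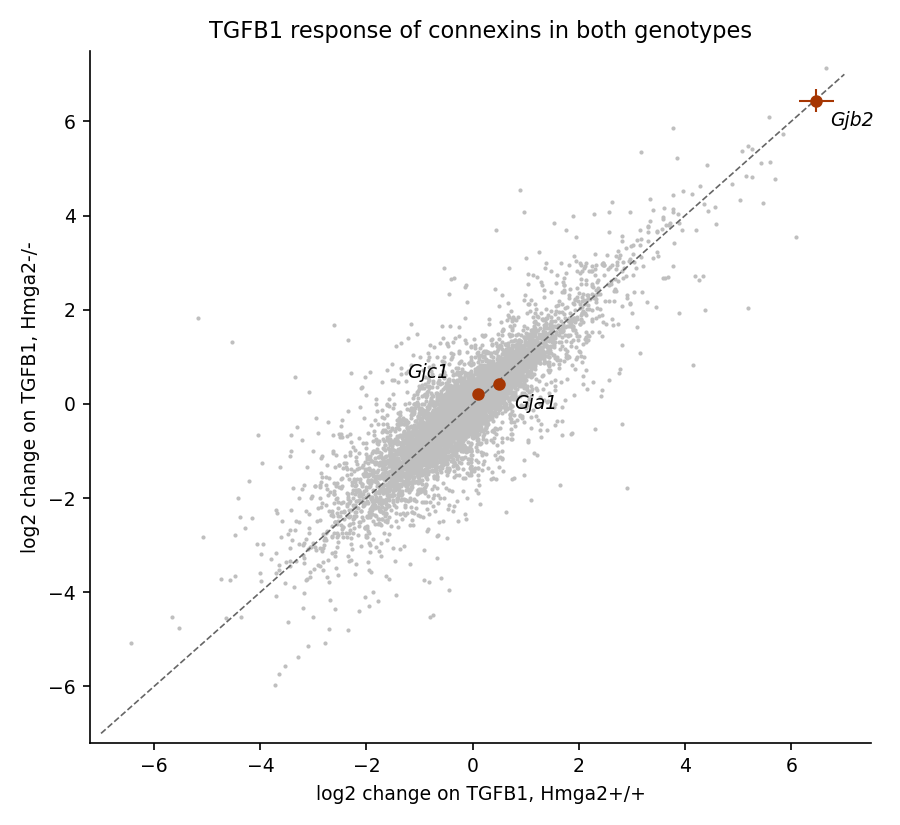
Log2 change on TGFB1 in Hmga2+/+ (x axis) and Hmga2-/- MEF (y axis) of 13581 genes (grey) and of the 3 connexins with at least 10 reads in every library (dark points with counting intervals); the dashed line marks equal change. Gjb2 lies at 6.46 and 6.44 near the line, Gja1 at 0.50 and 0.42, and Gjc1 at 0.09 and 0.21.

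Gjb2 lies near other connexin genes on its strand. The closest on chromosome 14 are Gjb6, 18.6 kb away, and Gja3, 40.5 kb away. Gjb6 had 1, 4, 4 and 12 reads and Gja3 had 2, 6, 8 and 29 reads, so both lay far below Gjb2 in every library. For Gja3 the TGFB1 ratio in Hmga2-/- MEF was 3.63 (1.61 to 9.12), and for Gjb6 the interval of this ratio ran from 0.904 to 12.7. On the coding record of Gja3, with 8 and 14 reads, the ratio was 1.73. Its interval, 0.681 to 4.79, includes no change. The non-coding gene B020004C17Rik, also within 100 kb of Gjb2, had no reads. No transcript record was named for Gm4491 or Gm48725, so these neighbours have no values.

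Since Gjb2 is known from epithelia, the markers of epithelium and keratinocytes were read beside it. Their summed level over 10 genes was 4.56 and 9.87 RPKM in Hmga2+/+ Ctrl and TGFB1, and 8.64 and 20.9 RPKM in Hmga2-/- Ctrl and TGFB1, so it was highest in the library where Gjb2 was highest. Most of this was Sfn, with 1.69, 6.57, 3.05 and 14.7 RPKM, and Krt19, with 1.90, 1.92, 4.93 and 4.94 RPKM. The other 8 markers were each under 1 RPKM in every library and summed to 0.966, 1.37, 0.672 and 1.22 RPKM. Among these 8, Krt5, Krt8 and Cldn4 had at most 5 reads in any library, while Krt14 had 5, 16, 3 and 24 reads and Epcam 24, 78, 14 and 33 reads, more with TGFB1 in both genotypes. Cdh1 had 21, 23, 21 and 45 reads. In Hmga2+/+ MEF on TGFB1, 3 of the 7 markers that passed were higher (Krt14, Epcam and Sfn) and 1, Krt18, lower. Over all tested genes 12.9% were higher there and 23.1% lower. In Hmga2-/- MEF 5 of 7 were higher (Krt14, Krt18, Epcam, Cdh1 and Sfn) and 1, Trp63, lower, beside 14.5% and 21.5% of genes. Krt18 had 33, 20, 14 and 25 reads and Trp63 had 58, 49, 63 and 39 reads. Krt14 passed only through its TGFB1 libraries, so these counts are no measure of epithelial cells. Among the 4 smooth muscle markers, Acta2 and Cnn1 were higher by 1.5-fold with TGFB1 in both genotypes and Myh11, with at most 20 reads, was lower, while Des had fewer than 10 reads in every library. Their sum, nearly all Acta2, was 16.9 and 59.8 RPKM in Hmga2+/+ and 50.5 and 168.9 RPKM in Hmga2-/- MEF. The 4 endothelial markers summed to 3.89 to 8.14 RPKM and moved in opposite directions. Kdr had 1.11, 4.46, 1.46 and 7.39 RPKM and was highest in the same library as Gjb2. Tek had 2.75, 0.330, 5.65 and 0.686 RPKM. Cdh5 had 2, 11, 0 and 8 reads, and Pecam1 had at most 5 reads in any library. On TGFB1 in Hmga2+/+ MEF 2 of the 3 that passed were higher (Cdh5 and Kdr) and 1, Tek, lower, beside 12.9% and 23.1% of genes. Cdh5 passed there only through its TGFB1 library. The 3 leukocyte markers summed to at most 1.63 RPKM in any library. The part of these markers in the level of Gjb2 was not tested.

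Proteins that bind connexins or act on their traffic and turnover were read as a list of 11 genes, all of which passed the filter. On TGFB1 in Hmga2+/+ MEF 1 was higher by 1.5-fold, Cav1, which encodes the caveolar coat protein caveolin. In the same comparison 1 was lower, Ccn3, which encodes a matricellular protein that binds Gja1. Of all tested genes 12.9% were higher and 23.1% lower. Cav1 had 42.7 and 82.3 RPKM in Hmga2+/+ and 65.8 and 129.7 RPKM in Hmga2-/- MEF, and Ccn3 had 45.8 and 13.96 RPKM in Hmga2+/+ and 36.3 and 6.66 RPKM in Hmga2-/- MEF. In Hmga2-/- MEF 2 were higher (Cav1 and Ubqln4) and 1 lower (Ccn3), beside 14.5% and 21.5% of genes. Between genotypes Cav1 was higher in Hmga2-/- MEF in Ctrl with 0 lower, beside 5.46% and 5.74% of genes. With TGFB1 Cav1 was higher and Ccn3 lower, beside 6.67% and 5.16%. The scaffold Tjp1, which binds the tail of Gja1, had 20.8, 30.8, 22.2 and 31.8 RPKM. The median log2 change of the 11 genes on TGFB1 was -0.02 and 0.14, beside -0.09 and -0.04 over all genes tested. Of the 3 pannexins, which form channels resembling hemichannels, Panx1 alone passed, with 1.77, 1.55, 1.81 and 2.34 RPKM. With TGFB1 Panx1 was 1.51-fold (1.25 to 1.83) higher in Hmga2-/- than in Hmga2+/+ MEF, where 6.67% of genes were higher. In the other comparisons it stayed under 1.5-fold.

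For each of the 4 genes the 3 genes with the most similar pattern were sought among 10994 genes, as the smallest distance between log2 RPKM centred over the 4 libraries. The genes closest to Gjb2 were Has2, Adam12 and Hbegf, at distances of 0.72, 1.21 and 1.29. Has2, which encodes a hyaluronan synthase, had 0.353, 20.3, 0.554 and 29.3 RPKM, that is TGFB1 ratios of 57.6 and 53.0. Adam12 encodes a membrane metalloprotease and Hbegf a growth factor that binds the EGF receptor, and their TGFB1 ratios were 48.6 and 38.5 in Hmga2+/+ and 35.2 and 42.8 in Hmga2-/- MEF. The nearest genes to Gja1 and Gjc1 lay closer: Togaram1, Med22 and Ublcp1 lay within 0.021 of Gja1, and Xpnpep1, Ino80c and Caap1 within 0.012 of Gjc1. For Gjb5, whose pattern rests on 6 to 8 reads, the closest were Gm45338, Nat14 and 4930558J18Rik, at 0.062 to 0.084.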

How the data were processed

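Strand-specific total RNA libraries of 4 MEF samples were sequenced with single reads of 75 bases. The authors trimmed the reads (Trimmomatic), mapped them to mm10 (HISAT2 2.1.0), made HOMER tag directories and deposited RPKM over UCSC known genes, counted on the annotated strand; the methods give counting over genes and the file header over exons. The labels' processing notes also list hg19. The table was taken as RPKM from 1 library for each condition; the study speaks of duplicates, and whether they were pooled is not stated. The other column used, transcript length in bases, was deposited with the table.

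Records were named by the GENCODE vM21 gene on the same strand that covered at least 50% of them (57708 of 63759), with the longest gene body taken for each gene. Ccn2 and Ccn3 stand for the older symbols Ctgf and Nov. The depth of each library was found from low values of transcripts under 600 bases, as the number of mapped reads that turned them into whole reads within 0.1; this step was tested on simulated data. Intervals are exact 95% limits (Poisson for levels, binomial for ratios), and PCR copies were not removed by molecular identifiers. Genes needed at least 10 reads in at least 1 of the 2 libraries; 0 RPKM was set to 0.001, and the threshold was 1.5-fold. No test was run. The alternatives were another pseudocount, filter, threshold, transcript choice and scaling. The 4 genes and all gene lists were chosen with earlier results of these data known. Genes were named by these lists, by position within 100 kb of Gjb2, or as the 3 genes nearest in pattern (at least 1 RPKM in a library and 10 reads in each). Hbegf was also named for its rank after its values were seen, and some genes of the lists are not reported here. The tools were scipy 1.17.1 for intervals, pandas 2.3.3, numpy 2.4.6, matplotlib 3.10.9 and Python 3.11.15.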

Additional observations from a re-analysis of the deposited data

Results flagged for a closer look

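Among the connexins, pannexins and connexin partners, there were 6 genes for which the ratio of TGFB1 to Ctrl went one way in Hmga2+/+ MEF and the opposite way in Hmga2-/- MEF, and with 1 library per condition the difference was not tested. As Hmga2-/- minus Hmga2+/+ on the log2 scale, the difference was -1.96 for Gja6, which had 5 to 15 reads, and -0.61 for Gjb5, with 6 to 8 reads. It was 0.56 for Panx1, 0.16 for Ctnnb1, 0.21 for Dbn1 and 0.22 for Src. In at least 1 genotype the counting interval of each of these 6 ratios includes no change. On their longest records Gjb2, Gja1 and Gjc1 went the same way in both genotypes.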

How the results depend on the processing

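No paired analysis was possible because each condition has 1 library, and for the same reason no replicate could be left out. Of 136 alternative values 101 stayed within counting error or within 1.5 times the count, and 35 did not. With a pseudocount of 1 RPKM the log2 values of Gjb2 were 5.05 and 5.51 on TGFB1 in Hmga2+/+ and Hmga2-/- MEF and 0.40 between genotypes in Ctrl, and the difference of responses was 0.46 in place of -0.03. With the record of highest mean RPKM, Gjb2 reached 6.92 in Hmga2+/+ MEF, and Gja1 had 0.40 in Hmga2-/- MEF, -0.13 between genotypes with TGFB1 and a difference of -0.11. With libraries rescaled, which moved medians by at most 0.04, Gja1 had 0.54 in Hmga2+/+ MEF, a difference of -0.12 and 0.0045 between genotypes in Ctrl. Of 48 log2 ratios of Gjb2, Gja1 and Gjc1 the sign turned in 2, those between genotypes in Ctrl of Gja1 and of Gjc1 (0.012 in place of -0.02) after rescaling.

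Counts of connexins past 1.5-fold moved mostly with genes of few reads, and with Gjb2 itself between genotypes in Ctrl. The call of its longest record was lost with a pseudocount of 1 RPKM and at 2-fold, while its coding record had a ratio of 2.42. Without a filter on low values 4 were higher and 4 lower on TGFB1 in Hmga2+/+ MEF, 7 and 4 in Hmga2-/- MEF, and 6 and 3 between genotypes in Ctrl and 7 and 3 with TGFB1. With at least 1 RPKM, 1 was higher and 0 lower on TGFB1 in Hmga2-/- MEF, 1 higher between genotypes in Ctrl, and 1 higher and 0 lower with TGFB1. With a pseudocount of 1 RPKM these counts were 1 and 0, 0, and 1 and 0. With a pseudocount of 0.1 RPKM 1 was lower on TGFB1 in Hmga2-/- MEF, 1 was higher between genotypes in Ctrl and 0 lower with TGFB1. With the record of highest mean RPKM 1 was lower on TGFB1 in Hmga2-/- MEF and 0 between genotypes with TGFB1. At 2-fold 0 were higher between genotypes in Ctrl. Depth limits Gjb5 and the connexins under 10 reads, and the reads of Gjb2 in Ctrl limit every ratio of it that uses a Ctrl library.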
